A study of Mus musculus with 6 samples.

Results

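The E2F transcription factors and the retinoblastoma family of pocket proteins form the switch that lets a cell pass from G1 into S phase. The 10 genes described here are E2f1, E2f2, E2f3, E2f4, E2f6, E2f7, E2f8, Rb1, Rbl1 and Rbl2. They were picked by symbol as the activating and repressive E2F factors and the pocket proteins, out of 16312 genes in the count table. All 10 passed the filter on low counts that left 14288 genes for testing. Their transcripts were measured in haematopoietic stem cells (HSCs), the cells of the bone marrow that renew the blood, which were sorted by flow cytometry from male mice. The series title names the strain as C57BL/6N, and the labels call both groups B6 controls in a parabiosis experiment without saying whether these animals were surgically joined. Ages are given at that procedure: 8 to 12 weeks for the 3 young libraries, 22 months for the 3 old ones. No drug or engineered allele is labelled in either group. The libraries are described as biological replicates, but whether each came from 1 mouse or a pool is not stated, so p-values measure the spread between these libraries. The labels do not say which surface markers defined the sorted cells.

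In resting cells, the pocket proteins bind E2F factors and hold their target genes silent. Cyclin-dependent kinases phosphorylate the pocket proteins, the E2F factors are released, and genes of DNA replication are transcribed. E2F1, E2F2 and E2F3 are activators. E2F4 represses together with the pocket proteins p107 (Rbl1) and p130 (Rbl2), and p130 is the main partner in quiescent cells. E2F6, E2F7 and E2F8 repress without a pocket protein, E2F6 as part of a Polycomb-type complex and E2F7 and E2F8 late in S phase. HSCs in the adult marrow are mostly quiescent, and loss of the whole pocket protein family drives them out of that state.

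The shallowest library was old replicate 2 with 12494557 counts in total, and the deepest was young replicate 3 with 30931680. Member genes were covered by 43 counts (E2f2 in old replicate 2) up to 7257 counts (Rbl2 in old replicate 3). Levels are given as CPM, counts scaled to a common library size. All 11 genes of the HSC list passed the filter on low counts, and their summed level was 3390 to 3980 CPM in young and 3530 to 3860 CPM in old libraries. The list mixes markers of HSCs with Cd48, Flt3 and Cd34, whose products adult long-term HSCs lack or carry at low levels. Within that list Slamf1 and Procr rose (log2 fold changes 1.47 and 0.95) and Flt3 and Cd34 fell (−1.66 and −1.11). Cd48, a surface protein that long-term HSCs lack, reached at most 3.09 CPM (log2 fold change −2.39, not called), and Kit ran from 826 to 930 CPM. These 6 markers were named after their values were seen. Other marker lists also moved with age, where 2.45% of all genes tested rose and 1.54% fell (adjusted p under 0.05, edgeR). Sums run over all genes of a list that were in the count table, and counts of changed genes over those tested. Immediate early genes rose in old libraries, 8 of 8, with a sum of 3130 to 3610 CPM against 345 to 387 CPM. Macrophage markers fell, 8 of 11 tested, with a sum of 7.88 to 10.9 CPM against 47.5 to 66.4 CPM, and Fcna, Cd5l, Adgre1 and C1qb had no count in any old library. Neutrophil markers fell, 4 of 5 tested, with a sum of 5.57 to 8.43 CPM against 16.6 to 237 CPM, the highest being young replicate 1. For erythroid markers 2 of 8 tested fell (767 to 934 CPM summed in old, 830 to 1230 CPM in young), for endothelial markers 2 of 5 rose (194 to 237 and 123 to 193 CPM), and of 6 lymphoid markers none passed. Their part in the results on the family was not tested.

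Of the 10 members, E2f8 and Rbl1 fell in old mice and none rose (adjusted p under 0.05, edgeR quasi-likelihood test), where 3.99% of all genes tested changed, 2.45% being higher and 1.54% lower in old mice. E2f8 was 2.39-fold and Rbl1 1.66-fold lower. Transcripts of E2f7, E2f4 and Rbl2 also separated the ages without overlap, E2f7 and E2f4 lower and Rbl2 higher in every old library, but did not pass the adjusted threshold. The CPM ranges of the ages were thus separate for 5 of the 10 members, 4 lower and 1 higher, where 22.4% of all genes tested were separate (10.8% lower and 11.6% higher). The median log2 fold change of old over young was −0.27 over the 10 members and −0.02 over all genes tested. In these sorted populations, fewer cells expressing a gene and less of its RNA per cell cannot be told apart.

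**Figure D1:**
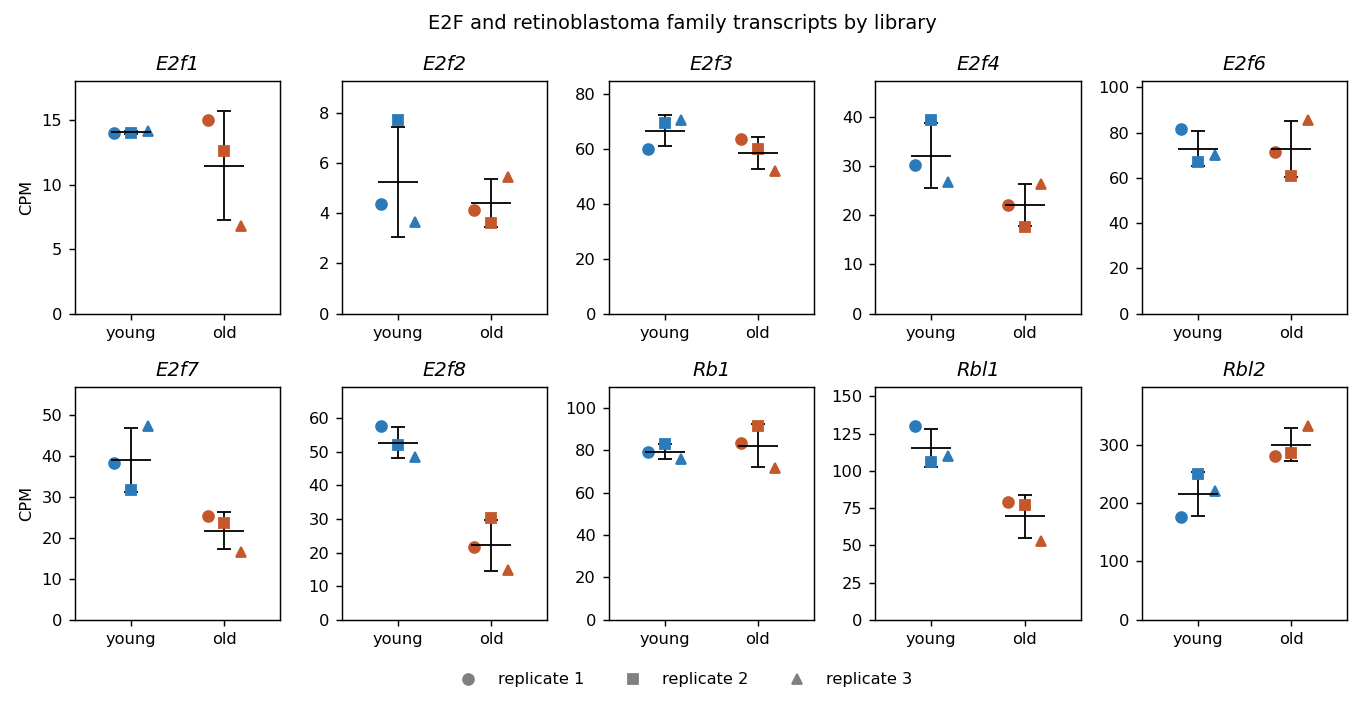
CPM (vertical axes, linear from 0) of each member in the 3 young (blue) and 3 old (orange) libraries, with marker shape giving the replicate and the black line and bars the group mean and SD. E2f8, Rbl1, E2f7 and E2f4 are lower in every old library, Rbl2 is higher in every old library, and the other 5 members overlap.

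E2F8 is a repressor that cycling cells make in S phase. Its gene (ENSMUSG00000046179.17) lies on chromosome 7 from 48866429 to 48881596 (GRCm38, as all positions here). E2f8 stood at 57.6, 52.0 and 48.3 CPM in young replicates 1, 2 and 3, and at 21.5, 30.1 and 14.9 CPM in old replicates 1, 2 and 3. The lowest young library was thus well above the highest old one, and the old libraries differed among themselves more than the young ones. The log2 fold change was −1.25 ± 0.24 SE (adjusted p = 0.0130, edgeR), with a 95% interval from −1.79 to −0.72. The direction held in each of the 13 alternatives tried, and the call was lost without old replicate 1 (adjusted p = 0.0752) and without old replicate 3 (adjusted p = 0.0544), where the log2 value was −1.02.

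E2F7 is the close relative and partner of E2F8, and its gene lies on chromosome 10 from 110745439 to 110787384. E2f7 stood at 38.2, 31.6 and 47.3 CPM in the young libraries and at 25.2, 23.6 and 16.6 CPM in the old ones, in the order of the replicates. All 3 old values lay below all 3 young ones, and old replicate 3 was again the lowest. The log2 fold change was −0.84 ± 0.23 SE with a 95% interval from −1.35 to −0.34, and the adjusted p was 0.0692 (edgeR). With DESeq2 on the same counts E2f7 passed (adjusted p = 0.00894), a test that called 7.7% of all genes. The authors' deposited table, whose fold changes are young over old, lists E2f7 at a log2 fold change of 1.17 (adjusted p = 0.00154). In that table the authors' base mean of E2f7 was 758.5, and the deposited counts gave 658.8, a difference of 15.1%. For Rb1 this difference was 4.08%, and for the remaining 8 members it was under 1%. GENCODE lists 9 transcripts of E2f7, and the sources used here do not say which were counted.

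E2F6 represses germline and cell cycle genes as part of a Polycomb-type complex. E2f6 stood at 81.5, 66.9 and 70.3 CPM in the young libraries and at 71.3, 61.0 and 85.7 CPM in the old ones. The groups overlapped fully, and the difference lay within a 95% interval from 0.781-fold to 1.28-fold (log2 fold change −0.0028 ± 0.16 SE, adjusted p = 0.996, edgeR). The sign of this near-zero value flipped in 5 of 13 alternatives. Its gene lies on chromosome 12 from 16810963 to 16839742.

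Among the activators none passed the test. E2f1, the factor first found as the target of the retinoblastoma protein, lies on chromosome 2 from 154559407 to 154569892. It stood at 14.0, 14.0 and 14.2 CPM in the young libraries and at 15.02, 12.6 and 6.78 CPM in the old ones. The young libraries were nearly equal, old replicate 1 lay above them, and old replicate 3 stood alone at the low end. The log2 fold change was −0.29 ± 0.32 SE (adjusted p = 0.725, edgeR), and without old replicate 3 it was −0.01. E2f2 was the scarcest member, with 4.36, 7.73 and 3.64 CPM in young and 4.13, 3.61 and 5.45 CPM in old libraries. Its groups overlapped, its 95% interval ran from 0.432-fold to 1.64-fold, and leaving out young replicate 2 turned its log2 value from −0.25 to 0.14. It lies on chromosome 4 from 136172394 to 136196057. E2f3 was the most abundant activator per length and lies on chromosome 13 from 29906575 to 29986063. It stood at 60.0, 69.4 and 70.6 CPM in young and 63.7, 59.8 and 51.9 CPM in old libraries. The groups overlapped, and its log2 fold change was −0.19 ± 0.15 SE (adjusted p = 0.610, edgeR). E2f3 has an activating and a shorter isoform from separate promoters, and counts per gene do not separate them.

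E2F4, the repressor that works through pocket proteins, is encoded on chromosome 8 from 105297663 to 105305370. E2f4 stood at 30.2, 39.4 and 26.7 CPM in the young libraries and at 22.1, 17.7 and 26.3 CPM in the old ones. The groups did not overlap, but only just, since young replicate 3 and old replicate 3 were nearly equal. The log2 fold change was −0.54 ± 0.23 SE (adjusted p = 0.268, edgeR).

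Of the pocket protein genes, Rbl1 alone passed the test. Rbl1 encodes p107, a pocket protein found mainly in cycling cells, on chromosome 2 from 157145893 to 157204534. Rbl1 stood at 130, 106 and 110 CPM in the young libraries and at 78.9, 76.8 and 53.0 CPM in the old ones. Every old library was below every young one, and old replicate 3 was the lowest. The log2 fold change was −0.73 ± 0.17 SE (adjusted p = 0.0348, edgeR), with a 95% interval from −1.10 to −0.36. The direction held in all 13 alternatives, but the call rested on all 6 libraries. Without any 1 of them the adjusted p ran from 0.0571 (without young replicate 2) to 0.16 (without old replicate 3), and without a filter on low counts it was 0.0509.

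Rbl2 encodes p130, the pocket protein of quiescent cells, on chromosome 8 from 91070057 to 91123844. Rbl2 stood at 176, 250 and 221 CPM in the young libraries and at 280, 287 and 332 CPM in the old ones. All old libraries lay above all young ones, with young replicate 1 the lowest and old replicate 3 the highest. The log2 fold change was 0.48 ± 0.14 SE, with a 95% interval from 0.18 to 0.78, and the adjusted p was 0.0830 (edgeR). With DESeq2 it was 0.018, and the authors' deposited table lists −0.47 for young over old (adjusted p = 0.0714). Rb1, the retinoblastoma gene itself, lies on chromosome 14 from 73183673 to 73325822. It stood at 79.2, 83.0 and 76.0 CPM in young and 83.5, 91.5 and 71.5 CPM in old libraries. These groups overlapped, and the log2 fold change of 0.05 ± 0.14 SE (adjusted p = 0.914, edgeR) had a 95% interval from 0.835-fold to 1.28-fold. Exons of Rb1 overlap those of Rcbtb2 and Lpar6 on the opposite strand, and exons of Rbl2 overlap those of Aktip. E2f7 and E2f8 have antisense transcripts that share exon sequence with them. The sources used here do not say whether counting used strand, so reads in these stretches may be split between the genes.

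**Figure D2:**
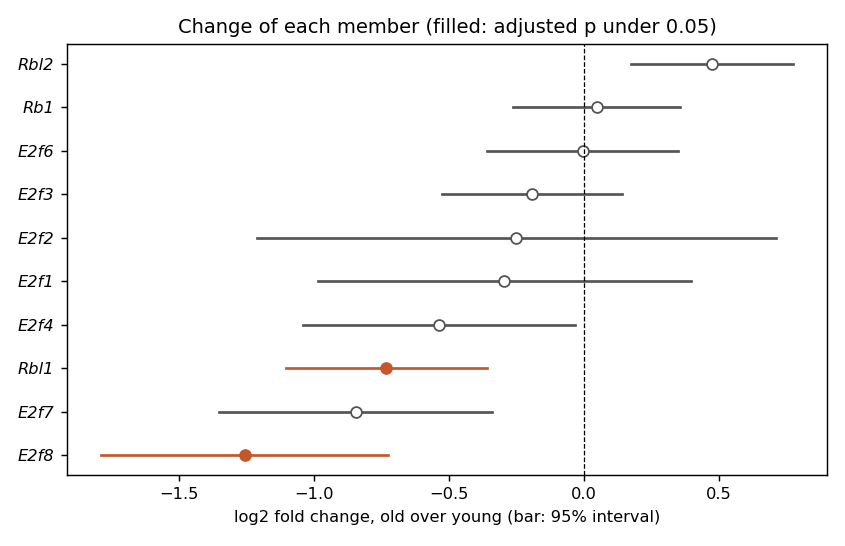
Log2 fold change of old over young (horizontal axis) for each member, with the bar giving the 95% interval from the edgeR fit and a filled orange point an adjusted p under 0.05. E2f8 (−1.25) and Rbl1 (−0.73) are filled, E2f7, E2f4 and Rbl2 have intervals off 0 without passing the adjusted threshold, and Rb1 and E2f6 lie near 0.

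The pocket proteins were also set against each other within each library, which removes library size. Of the pocket protein transcripts per length, Rbl1 made up 33.7%, 24.2% and 26.9% in the young libraries and 17.8%, 16.9% and 11.6% in the old ones. Rbl2 made up 44.9%, 56.1% and 53.6% in the young libraries and 62.5%, 62.1% and 72.0% in the old ones. Neither share overlapped between the ages, and Rb1 stayed between 16.4% and 21.4%. Rbl1 was already lower and Rbl2 already higher in every old library, so these shares and their ratio restate those differences and are not independent evidence. The log2 ratio of Rbl1 over Rbl2 per length averaged −0.87 ± 0.41 over the young libraries and −2.11 ± 0.45 over the old ones (SD, n = 3 each). Leaving out any 1 library moved the difference of −1.23 between the means no further than −0.97 (without old replicate 3) and −1.40 (without young replicate 2). The summed pocket protein transcripts were 84.6 ± 5.45 (young) and 92.8 ± 1.5 CPM per kilobase (old), and the summed transcripts of the 7 E2F members 80.9 ± 2.41 and 61.7 ± 2.77 CPM per kilobase. With the longest annotated transcript as the length, the E2F sum was lower and the pocket protein sum higher in every old library. The pocket protein sums were only just apart, at 90.3 CPM per kilobase in young replicate 2 and 91.1 in old replicate 1. With the union of exons as the length, the pocket protein sums overlapped between the ages. E2f8 made up 16.7% to 18.9% of the E2F sum in young and 6.46% to 13.9% in old libraries. The log2 ratios of E2f1 and E2f8 over E2f4 overlapped between the ages, with means of −1.64 and −1.47 for E2f1 and of −0.16 and −0.92 for E2f8, in young and old mice.

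**Figure D3:**
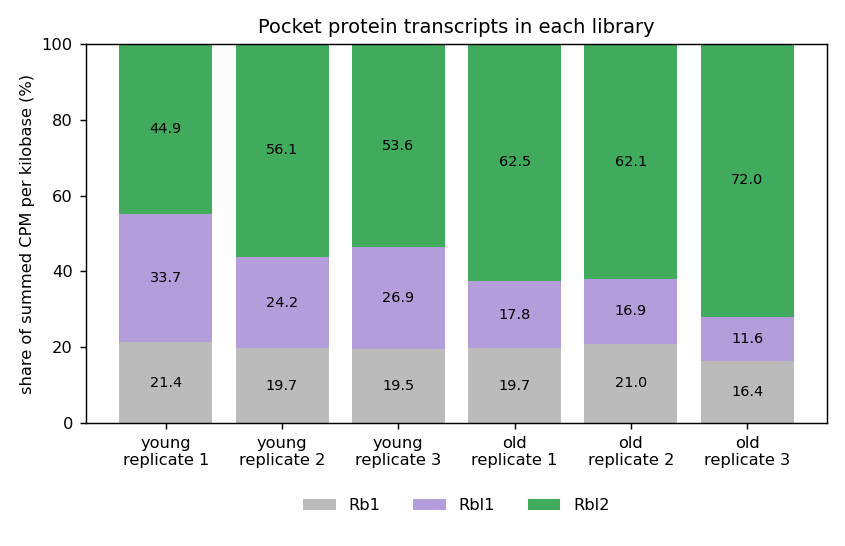
Share (vertical axis, percent) of Rb1, Rbl1 and Rbl2 in the summed CPM per kilobase of the 3 pocket protein genes in each library. The Rbl1 share is 24.2% or more in each young library and 17.8% or less in each old one, and the Rbl2 share is 56.1% or less in young and 62.1% or more in old.

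Levels of different genes are comparable only per length, so CPM were divided by the length of the longest annotated transcript. In young mice the order of the means was Rbl2 (43.8 CPM per kilobase), E2f6 (24.1), Rbl1 (23.7), Rb1 (17.1), E2f4 (16.1), E2f8 (14.3), E2f3 (13.1), E2f7 (7.14), E2f1 (5.09) and E2f2 (1.11). The ranges of E2f6 and Rbl1 overlapped, as did those of each neighbouring pair from Rb1 to E2f3, and the other neighbours did not overlap. In old mice the order was Rbl2 (60.9 CPM per kilobase), E2f6 (24.1), Rb1 (17.7), Rbl1 (14.3), E2f3 (11.5), E2f4 (11.1), E2f8 (6.01), E2f1 (4.16), E2f7 (3.98) and E2f2 (0.928). There the neighbours from Rb1 to E2f4 overlapped, and so did those from E2f8 to E2f7. With the union of exons as the length, Rbl2 stayed first and E2f2 last in both ages, but only these 2 of the 10 members kept their rank in young mice.

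**Figure D4:**
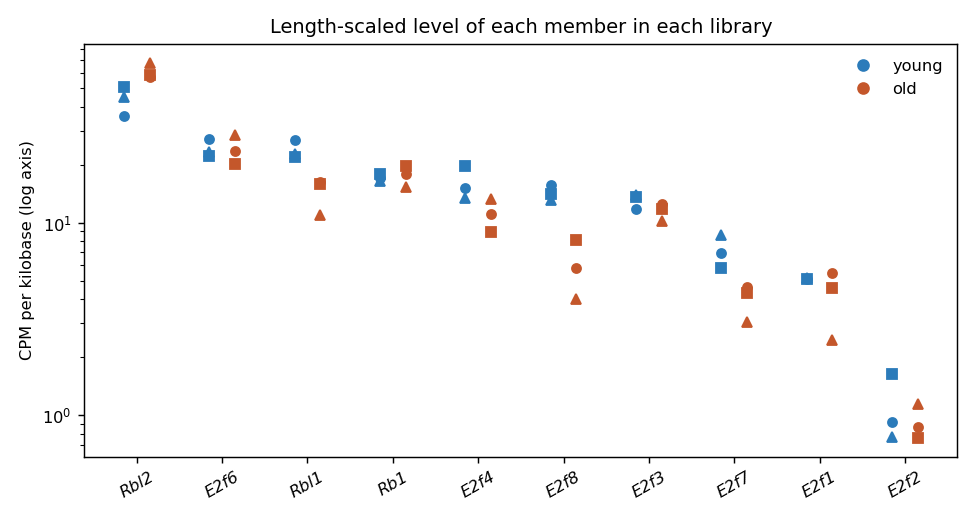
CPM per kilobase of the longest transcript (vertical log axis) for each member in each library, ordered by the young mean, with marker shapes for replicates 1 (circle), 2 (square) and 3 (triangle). Rbl2 is highest and E2f2 lowest in both ages, and the mean of E2f8 is 14.3 in young and 6.01 in old.

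Genes whose pattern over the 6 libraries was most like that of a changed member were found by the root mean square difference of log2 CPM after each gene was centred on its own mean. Nearest to E2f8 were Rassf4 (0.0985), a Ras association domain gene, Nusap1 (0.106), which builds the mitotic spindle, and Efcab7 (0.119). Nearest to Rbl1 were Cenpa (0.0606), the histone variant of centromeres, Hmmr (0.0928), a spindle protein, and Rel (0.0936), an NF-kB subunit. The search covered protein-coding genes only and left out predicted genes (Gm or Rik names). The median distance of these genes (n = 13591) was 0.776 from E2f8 and 0.522 from Rbl1. Of the other members, Rbl1 (0.327) and E2f7 (0.36) lay nearest to E2f8, and E2f7 (0.188) nearest to Rbl1. These distances describe 6 libraries in 2 groups, so genes that differ by age to a like degree come out close.

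E2F genes are themselves targets of E2F factors, and upstream sequence is shown for the pair of members that fell and for their closest counterparts, E2f7 and Rbl2. The sequences are RefSeq's for GRCm38.p6, the stretch of 250 bases that ends just before the annotated start. They were searched on both strands for the E2F words TTTCCCGC, TTTGGCGC, TTTCGCGC and TTTGCCGC and for the words TTTGAA and TTCGAA of the cell cycle homology region (CHR), a promoter element bound by the MuvB complex. The words do not overlap one another in these windows, and TTCGAA reads the same on both strands. Capitals mark the matches. The windows are chr2:157204535-157204784 for Rbl1 (minus strand), chr7:48881597-48881846 for E2f8 (minus strand), chr10:110745189-110745438 for E2f7 (plus strand) and chr8:91069807-91070056 for Rbl2 (plus strand).
Rbl1: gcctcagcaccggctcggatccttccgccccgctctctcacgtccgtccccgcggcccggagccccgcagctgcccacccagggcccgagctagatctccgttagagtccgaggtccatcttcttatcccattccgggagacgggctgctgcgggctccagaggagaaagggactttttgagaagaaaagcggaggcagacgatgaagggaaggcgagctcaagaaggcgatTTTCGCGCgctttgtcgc
E2f8: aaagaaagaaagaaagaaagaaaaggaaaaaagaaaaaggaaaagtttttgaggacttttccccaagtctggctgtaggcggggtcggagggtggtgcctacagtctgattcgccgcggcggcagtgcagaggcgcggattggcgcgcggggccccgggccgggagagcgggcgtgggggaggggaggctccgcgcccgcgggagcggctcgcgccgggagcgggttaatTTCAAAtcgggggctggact
E2f7: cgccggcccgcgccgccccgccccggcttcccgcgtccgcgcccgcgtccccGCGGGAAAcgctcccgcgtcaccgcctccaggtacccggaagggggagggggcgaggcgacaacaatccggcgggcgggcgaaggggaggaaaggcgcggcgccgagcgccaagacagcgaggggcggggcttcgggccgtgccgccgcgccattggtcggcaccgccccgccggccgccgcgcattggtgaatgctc
Rbl2: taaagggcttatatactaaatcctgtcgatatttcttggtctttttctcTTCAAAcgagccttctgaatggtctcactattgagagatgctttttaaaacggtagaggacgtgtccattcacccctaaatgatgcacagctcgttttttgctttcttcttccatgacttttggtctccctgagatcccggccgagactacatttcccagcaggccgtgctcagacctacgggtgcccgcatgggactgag
None of these windows holds an exon of a GENCODE gene, and the E2f8 window overlaps the span of Gm2788, a noncoding transcript on the opposite strand. In the Rbl1 window the E2F word TTTCGCGC covers bases 18 to 11 before the start. The E2f7 window holds TTTCCCGC on the opposite strand at bases 198 to 191, the E2f8 window TTTGAA on the opposite strand at bases 20 to 15, and the Rbl2 window the same word on the opposite strand at bases 201 to 196. The E2f3 window at the outer of its starts held TTTCCCGC at bases 11 to 4 on the opposite strand. In all, 3 of the 8 members in the table held an E2F word and 4 a CHR word, against 2.16% and 19.6% of 27025 genes. The CHR word of E2f2 is in the window of an inner start, 8388 bases past the GENCODE start, and that window holds E2f2 exon sequence. E2f4 and Rb1 were not in the table, and the E2f1 window lies inside the gene as GENCODE gives it, 466 bases past the GENCODE start.

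Next the partners and regulators of the family were read from lists of genes chosen by known function. The DP proteins, with which E2F factors bind DNA as dimers, did not pass the test. Tfdp1 averaged 151 ± 7.91 CPM over young and 122 ± 8.72 CPM over old libraries without overlap (SD, n = 3, adjusted p = 0.196, edgeR), and Tfdp2 averaged 217 ± 14.5 and 214 ± 19.1 CPM. E2f5, the other repressor that works through pocket proteins, stood at 18.9 ± 6.77 and 23.1 ± 4.86 CPM with overlap. The MuvB core joins p130 and E2F4 in the DREAM repressor complex of quiescent cells and later works with B-MYB and FOXM1 to activate mitotic genes. None of its core genes passed, with log2 values of −0.20 for Lin9, −0.59 for Lin37, −0.22 for Lin52, −0.09 for Lin54 and −0.07 for Rbbp4. Dyrk1a, the kinase that assembles DREAM, had a log2 value of 0.29 (adjusted p = 0.240, edgeR).

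The activators that work with MuvB were the changed genes of that list, 2 of 8 tested, where 1.54% of all genes tested fell. Mybl2, which encodes B-MYB and is a classic E2F target, stood at 15.03, 8.35 and 17.5 CPM in the young libraries and 6.07, 2.60 and 3.85 CPM in the old ones. It fell by 1.69 ± 0.41 SE on the log2 scale (adjusted p = 0.0419, edgeR). Foxm1, the driver of mitotic transcription, stood at 35.4, 41.7 and 34.5 CPM in young and 18.01, 20.9 and 7.88 CPM in old libraries. It fell by 1.26 ± 0.31 SE on the log2 scale (adjusted p = 0.0453, edgeR). Both calls were near the threshold. That of Foxm1 was lost in each of the 6 fits without 1 library (adjusted p from 0.0538 to 0.126), and that of Mybl2 in 5 of them, the exception being the fit without young replicate 2 (adjusted p = 0.0273, and up to 0.163 in the others). Both were also lost without a filter on low counts (adjusted p = 0.0619 for Foxm1 and 0.0509 for Mybl2, edgeR), and that of Mybl2 with limma-voom (adjusted p = 0.0653).

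A list of 10 genes held the cyclins and kinases that act on pocket proteins and the phosphatase gene Cdc25a. Of these 10, 1 fell and none rose, where 1.54% of all genes tested fell. Their median log2 fold change was −0.49, and 7 were lower in every old library, where 10.8% of all genes tested were. Ccna2, the S phase and G2 cyclin that also restrains E2F1, fell from 165 ± 24.2 to 80.8 ± 13.1 CPM (SD, n = 3, log2 fold change −1.03 ± 0.16 SE, adjusted p = 0.00325, edgeR), and its call held in all 13 alternatives. The phosphatase gene Cdc25a and the cyclin gene Ccne2, both of the G1/S transition, had log2 values of −0.90 and −0.88 (adjusted p = 0.0592 and 0.0683, edgeR). Of 7 listed CDK inhibitor genes, Cdkn2a and Cdkn2b were not in the count table. None of the 5 tested passed with edgeR, and the median log2 fold change was 0.35. Cdkn1a, which encodes p21, stood at 3.03, 4.75 and 4.46 CPM in young and 10.97, 15.4 and 7.69 CPM in old libraries (log2 fold change 1.47 ± 0.38 SE, adjusted p = 0.0556, edgeR). Cdkn1c, which encodes the HSC quiescence factor p57, had a log2 value of 1.10 (adjusted p = 0.121) and Cdkn2d one of 0.35 (adjusted p = 0.541, edgeR). With DESeq2, which called 7.7% of all genes, Cdkn1a (adjusted p = 0.00471) and Cdkn1c (0.0122) passed, as did Cdc25a (0.00589) and Ccne2 (0.00991).

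No gene of the repressive partners passed the test. Of 15 corepressor genes of pocket proteins none passed, with a median log2 fold change of −0.07. The smallest p belonged to the histone methyltransferase gene Suv39h1 (−0.49, adjusted p = 0.283), followed by the chromatin remodeller Smarca4 (−0.28) and Kmt5b (0.23). Of 11 genes of the E2F6 complex none passed, with a median of 0.02 and values of 0.31 for Yaf2, −0.22 for Ehmt1 and 0.13 for Pcgf6. Of 11 germline genes that E2F6 keeps silent, 5 were in the count table and 3 were tested, and the summed level of the 5 ran from 3.61 to 8.53 CPM over all libraries. Those tested, Stag3, Ddx4 and Smc1b, had log2 values of −1.13, −0.39 and −0.13 and adjusted p of 0.378, 0.843 and 0.973 (edgeR). Of 9 coactivator and turnover genes none passed, with values of −0.34 for Hcfc1, −0.29 for Skp2 and 0.23 for Kat2a. Of 8 tested apoptosis genes linked to E2F1 none passed, with a median of −0.08 and values of −0.90 for Bcl2l11 and 0.22 for Ppp1r13b.

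The targets of the family were read next. Of 43 G1/S targets of E2F factors, 24 fell and none rose (median log2 fold change −0.66), where 1.54% of all genes tested fell. Atad2, a chromatin ATPase, fell from 364 ± 36.7 to 194 ± 37.3 CPM, Fen1, the flap endonuclease of lagging strand synthesis, from 36.3 ± 2.66 to 15.5 ± 1.57 CPM, and the replication initiation factor Mcm10 from 31.1 ± 5.06 to 11.9 ± 1.33 CPM (SD, n = 3, adjusted p = 0.00453, 0.00507 and 0.00565, edgeR). The calls of these 3 genes held in all 13 alternatives. Single libraries weighed on the count of fallen targets. Leaving out young replicate 1 or 3 gave 15 or 13, and leaving out old replicate 1, 2 or 3 gave 14, 11 or 5. Of 34 G1/S targets with a promoter entry, 10 (29.4%) held an E2F word and 5 (14.7%) a CHR word in the upstream window. Over all genes with a promoter entry these shares were 2.16% and 19.6%.

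The list of 40 genes of G2 and mitosis held 24 that fell and no gene that rose, and its median log2 fold change was −0.93. Of all genes tested 1.54% fell, and their median was −0.02. Ect2, needed for cytokinesis, fell from 61.0 ± 7.39 to 20.7 ± 1.48 CPM (adjusted p = 0.000555, edgeR), and the proliferation marker Mki67 and the topoisomerase Top2a had log2 values of −1.15 and −1.11 (adjusted p = 0.00086 and 0.00171). Leaving out old replicate 1 or 3 gave 15 or 14 fallen genes. Of 35 genes of this list with a promoter entry, 1 (2.86%) held an E2F word and 14 (40.0%) a CHR word, against 2.16% and 19.6% over all genes. These lists were chosen with the lower cell cycle genes of these samples already known, so their direction is not independent evidence.

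Levels of proliferation genes and of the family were also set side by side across the old libraries. The summed level of the G2 and mitosis list was 3028 CPM in old replicate 2, 2657 CPM in old replicate 1 and 2028 CPM in old replicate 3, and Mki67 stood at 898, 785 and 594 CPM in that order. E2f8 (30.1, 21.5 and 14.9 CPM) and Foxm1 followed the same order, while Mybl2 did not and was lowest in old replicate 2 (2.60 CPM). E2f7, Rbl1 and E2f1 had their lowest and Rbl2 its highest value in old replicate 3, while E2f4 was lowest in old replicate 2 and highest in old replicate 3. In the young libraries the summed level of that list ran from 4722 to 5566 CPM, and there neither E2f8 nor Foxm1 followed it. The list and Mki67 were highest in young replicate 3 (5566 and 1797 CPM), where E2f8 was lowest of the young libraries (48.3 CPM). The list was nearly as high in young replicate 1 (5559 CPM), where E2f8 was highest (57.6 CPM). Foxm1 was highest (41.7 CPM) in young replicate 2, where the list was lowest (4722 CPM). Mybl2 did follow the list there, with 15.03, 8.35 and 17.5 CPM in young replicates 1, 2 and 3. The part of proliferating cells in the differences of E2f8 and Rbl1 was not tested.

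**Figure D5:**
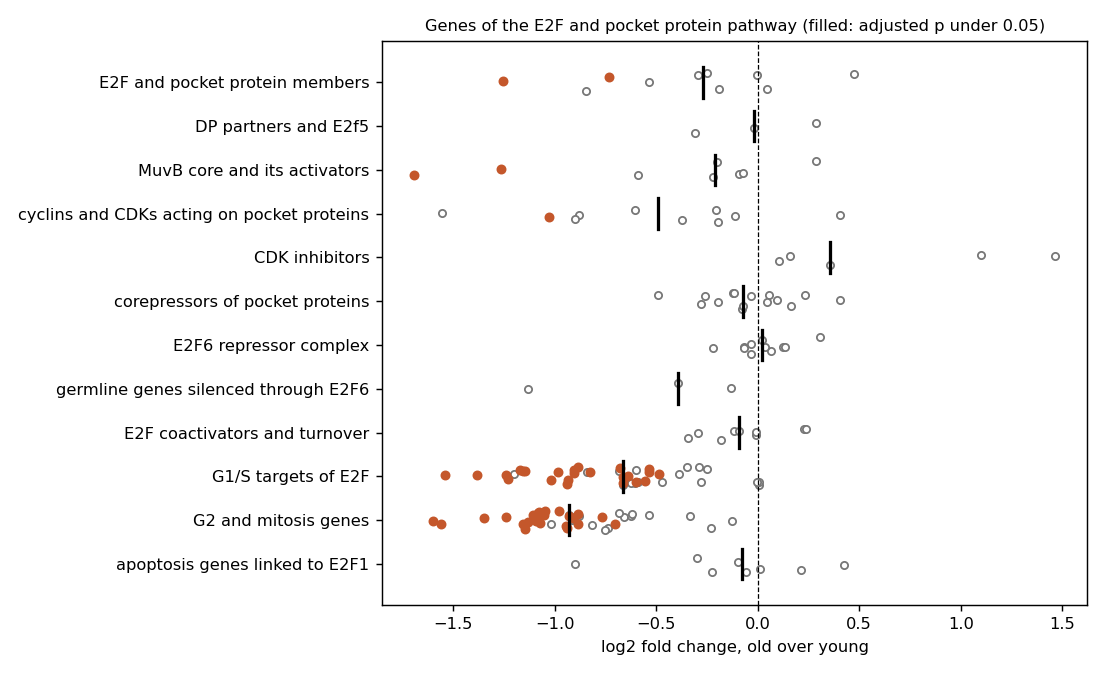
Log2 fold change of old over young (horizontal axis) for each tested gene of the family and of the pathway lists, with filled orange points for an adjusted p under 0.05 and a black bar for the list median. Filled points make up 24 of 43 G1/S targets, 24 of 40 G2 and mitosis genes, 2 of 10 members, 2 of 8 genes of the MuvB list and 1 of 10 genes of the cyclin and kinase list, and no filled point lies to the right of 0.

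In the authors' deposited table, E2f8, Rbl1 and E2f7 have an adjusted p under the threshold, all higher in young mice. Its log2 values were 1.02 for E2f8 (adjusted p = 0.000952) and 0.68 for Rbl1 (adjusted p = 0.00669). For the other members not yet given, that table has log2 values of 0.44 for E2f4, 0.21 for E2f1, 0.15 for E2f2, 0.15 for E2f3, −0.02 for E2f6 and 0.18 for Rb1. The Rb1 and E2f6 values have the opposite direction to those from the deposited counts. There E2f6 had a log2 value of −0.0028 for old over young, and Rb1 was 1.03-fold higher in old mice, a difference near 0 that turned to a log2 value of −0.0068 when libraries were scaled by size alone.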

How the data were processed

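Per the labels' protocols, HSC RNA was isolated with the PicoPure kit and made into libraries with the Nugen Ovation Trio low-input kit. Single-end reads were sequenced from 3 libraries of each age. Salmon, DESeq2, FastQC, MultiQC and the build GRCm38 stand in the submitters' processing notes with no version and no role. The deposited table held estimated counts that were already whole numbers, so none was rounded. A second table holds the authors' comparison: a base mean (a normalised signal) by the authors, the authors' log2 fold change with its standard error, and a test score by the authors. It also gives each gene's p-value, raw and adjusted, as deposited.

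Genes were matched by Ensembl identifier, with the version removed, to GENCODE vM21 (GRCm38). A symbol was found for 16301 genes, and all 10 members had the same version. The tests ran in edgeR 4.0.16 under R 4.3.3: the default filter (minimum count 10, minimum total 15), TMM factors from 0.955 to 1.058, and the quasi-likelihood F test of old against young, two-sided, with Benjamini-Hochberg adjustment over 14288 genes at 0.05. SE are the log2 fold change over the root of F. DESeq2 1.42.0 and limma-voom (limma 3.58.1) were alternatives, with other scalings, other filters, robust dispersion and leaving out each library. Log2 CPM for distances used a prior count of 2. The fit was tested on simulated data.

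Replicates are numbered in sample order, and the numbers do not pair libraries. For young replicate 2 the title and description disagree on the library number; the title was used. Named genes were the members, all genes of the DP and MuvB lists, the 3 tested genes with the smallest p in each other pathway list, Mki67, and the 3 nearest genes of each changed member. One gene that this rule names in the apoptosis list is not reported here. The members and lists were chosen with earlier results of these data known.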

Additional observations from a re-analysis of the deposited data

How the results depend on the processing

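Leaving out 1 library at a time gave 245 to 473 changed genes against 570 (322, 345 and 245 in the fits lacking old replicate 1, 2 and 3). The same fits gave 0 to 1 changed members against 2 (0 in the fits lacking old replicate 1 or 3), 5 to 24 G1/S targets and 14 to 21 G2 and mitosis genes. In these fits E2f8 and Rbl1 kept their direction. DESeq2 called 1100 genes and 4 members, E2f8, E2f7 and Rbl1 lower and Rbl2 higher. With no filter 1 member was called, E2f8. With library size alone 310 genes were higher and 298 lower, against 350 and 220 with TMM, and the median log2 fold change of all genes was −0.07. With the union of exons as the length, 2 of 10 members kept their rank in young mice.

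Signs turned in uncalled values only. On the log2 scale and over the fits lacking 1 library, E2f2 ran from −0.458 to 0.141, E2f6 from −0.129 to 0.111, Rb1 from −0.0305 to 0.149, Tfdp2 from −0.0894 to 0.0386, Lin52 from −0.414 to 0.089, Lin54 from −0.291 to 0.102, Rbbp4 from −0.125 to 0.0339, Ddx4 from −1.12 to 0.0337 and Smc1b from −0.667 to 2.61. The difference of the E2f1 over E2f4 ratio ran from −0.0842 to 0.648. E2f6 was also at 0.0061 with no filter and 0.0248 with limma-voom, Rb1 at −0.0068 with library size alone, and Smc1b at 0.97 with limma-voom. The cause of these changes was not tested. With 43 counts in its shallowest library, E2f2 is the member that depth limits most. No paired analysis was possible because the labels give no replicate numbers shared between the groups.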
